A study of Neurospora crassa OR74A with 13 samples.

Results

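The strain TBGK of the filamentous fungus Neurospora crassa, which lacks 3 beta-glucosidase genes, was compared with the wild type after a shift to Avicel, a microcrystalline cellulose. The comparison used 4 of the 13 libraries of the study, 1 of TBGK and 3 of the wild type (WT), chosen by strain and carbon source. WT was the reference strain FGSC 2489, and TBGK was a deletion mutant of NCU04952 (gh3-4), NCU00130 (gh1-1) and NCU08755 (gh3-3), whose mating type and parent strains the labels do not give. Both strains were inoculated at 1000000 conidia per mL, grown for 16 h in sucrose medium, washed, and sampled 4 h after transfer to fresh Avicel medium. The other libraries were TBGK and WT on cellobiose (1 each), TBGK on sucrose (1), WT on sucrose (3) and WT without carbon (3). Messenger RNA was taken with oligo-dT beads and sequenced without a stated strand, and levels are FPKM, fragment numbers that the authors scaled by transcript length and library size. The comparison addresses how gene expression during cellulose use differs when these beta-glucosidases are missing; the labels name the mutant libraries as single ones.

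Growth on cellulose depends on secreted enzymes. Cellobiohydrolases and endoglucanases cut the polymer into cellobiose and longer cellodextrins, lytic polysaccharide monooxygenases (LPMOs) break crystalline regions by oxidation, and beta-glucosidases split cellobiose into glucose outside or inside the cell. The cellodextrin transporters cdt-1 and cdt-2 carry the uncut sugars across the membrane. The regulators clr-1 and clr-2 switch on the cellulase genes, and cre-1 represses them when glucose is plentiful. Cellobiose or a sugar made from it is regarded as the inducer in this fungus.

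TBGK on Avicel was a single library, so its differences have no replicate check of their own. A gene was called higher or lower when TBGK lay outside the range of the 3 WT libraries and differed by at least 1 in log2(FPKM + 1), that is 2-fold for well expressed genes, from the mean of their log values. The test was limma over all 13 libraries, in which the single library is assumed to vary like the WT triplicates; genes with a Benjamini-Hochberg adjusted p under 0.05 are said to have risen or fallen. The 3 WT libraries were not alike. Replicates 2 and 3 lay at least 2-fold apart in 1.14% of 8185 genes, whereas replicate 1 lay that far from replicate 2 in 20.8% and from replicate 3 in 22.0%. TBGK was closest to replicate 1, with 15.5% of genes at least 2-fold apart, against 31.4% for replicate 2 and 32.6% for replicate 3. Replicate 1 also had the lowest depth of the 3, 518 aligned megabases against 2551 and 2427, and the depth of TBGK is unknown. The WT triplicates had been deposited before and the 4 single libraries had not, so on Avicel the strain and the deposit cannot be told apart. What sets replicate 1 apart was not tested.

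The deleted genes were almost silent in TBGK. gh1-1 (NCU00130, supercont10.3, 2730966 to 2732948), a beta-glucosidase of the cell interior, had 9.21 FPKM in TBGK and 33410.4, 43047 and 50743 in WT replicates 1, 2 and 3. The WT mean was 42400.3 ± 8684 FPKM (SD, n = 3), 4601 times the TBGK value. gh3-3 (NCU08755, supercont10.3, 5254975 to 5258174) was listed at 0 in TBGK and had 3441, 11177 and 11578 FPKM in WT. Neither gene overlapped between the strains. gh3-4 (NCU04952, supercont10.4, 846341 to 849048) had 3.23 FPKM in TBGK and 1827, 189 and 224 in WT, so WT replicate 1 alone was high. In limma, gh1-1 fell by 11.998 (SE 0.59, adjusted p = 6.04e-05), gh3-3 fell by 12.90 (SE 0.83, adjusted p = 0.000204) and gh3-4 fell by 6.66 (SE 1.12, adjusted p = 0.0418). Over the alternatives the adjusted p ran from 1.01e-05 to 0.0329 for gh1-1 and from 0.000164 to 0.176 for gh3-3, whose call was lost with the 4 Avicel libraries alone. The call for gh3-4 was lost without WT replicate 2 (adjusted p = 0.0768) and without replicate 3 (0.0917), and over all alternatives its adjusted p ran from 0.00369 to 0.221.

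Genes beside gh3-3 and gh3-4 stood out. Among the 3 genes on each side of each deletion, 18 in all, 6 were called higher and 1 lower. Over all 8185 genes 13% were called higher and 9.64% lower. The 6 lay beside gh3-3 and gh3-4, and the 1 called lower lay beside gh1-1. NCU10427 and NCU08753, beside gh3-3, were under the filter on low values and could not be called. The strongest difference was that of NCU08756 (supercont10.3, 5252358 to 5254295), whose end lies 679 bases from gh3-3. It had 108054 FPKM in TBGK and 108, 129.5 and 128 in WT, 888 times the WT mean, and rose by 9.79 (SE 0.81, adjusted p = 0.00122; 4.96e-07 to 0.0323 over the alternatives). No WT library came near this level, which made it the third most abundant transcript of TBGK. NCU08757, the next gene on that side, was listed at 0 in all 3 WT Avicel libraries and had 16.7 FPKM in TBGK (adjusted p = 0.0326; 0.00265 to 0.212 over the alternatives, with 0.106 without WT replicate 2 and 0.112 without replicate 3). NCU11291, the third gene on the far side, had 356 FPKM against 113, 37.6 and 27.4.

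Around gh3-4, NCU04953 had 448 FPKM in TBGK and 14.1, 11.7 and 12.8 in WT, a difference of 5.02 (adjusted p = 0.0663). NCU04951 had 27063 FPKM against 11200.4, 5149 and 4925, and NCU04950 had 206 against 61.5, 52.1 and 66.98. All 3 were called higher, and so lay above every WT library, without passing the test. Around gh1-1, NCU11867 had 86.7 FPKM against 120.5, 99.1 and 96.01 and NCU00132 had 549 against 246, 429 and 460.1; neither was called, and NCU00128, 4851 bases away, was called lower at 5.27 FPKM against 8.12, 14.8 and 13.6.

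**Figure D1:**
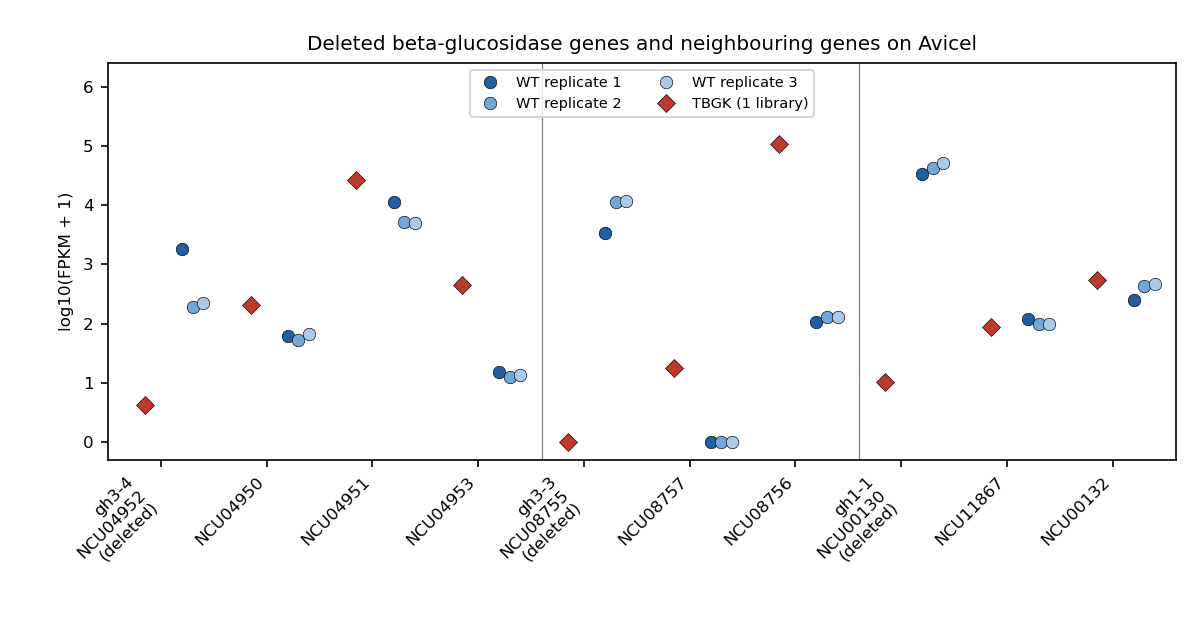
The vertical axis gives log10(FPKM + 1) of the deleted genes and 7 of their neighbours on Avicel, with diamonds for the TBGK library and circles for the 3 WT libraries; grey lines separate the loci of gh3-4, gh3-3 and gh1-1. The deleted genes lie far below the WT circles, and NCU08756 lies at 108054 FPKM in TBGK above WT values of 108, 129.5 and 128.

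The high level of NCU08756 was also present on the other carbon sources. On cellobiose it had 63514 FPKM in TBGK and 55.3 in the WT library that came with the mutant libraries. On sucrose it had 1468 FPKM in TBGK and 0, 3.49 and 4.74 in WT. NCU04953 and NCU04951 were likewise higher in TBGK on cellobiose, by 4.80 and 3.52, and on sucrose, by 2.03 and 2.54.

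Across the genome, 1064 genes were called higher in TBGK and 789 lower. The limma test found that 54 genes rose (0.660%) and 29 fell (0.354%), all of them also called by range and fold; 1964 genes had an unadjusted p under 0.05. The numbers depended on the WT libraries used. Without replicate 1 the test passed 818 genes up and 1076 down, without replicate 2 it passed 3 and 9, and without replicate 3 it passed 2 and 8. Of the 1064 higher calls, replicate 1 was the highest WT library in 841, and of the 789 lower calls it was the lowest in 674. Among all 8185 genes it was the highest in 2984 and the lowest in 4663. With the 4 Avicel libraries alone 1 gene rose and 3 fell.

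**Figure D2:**
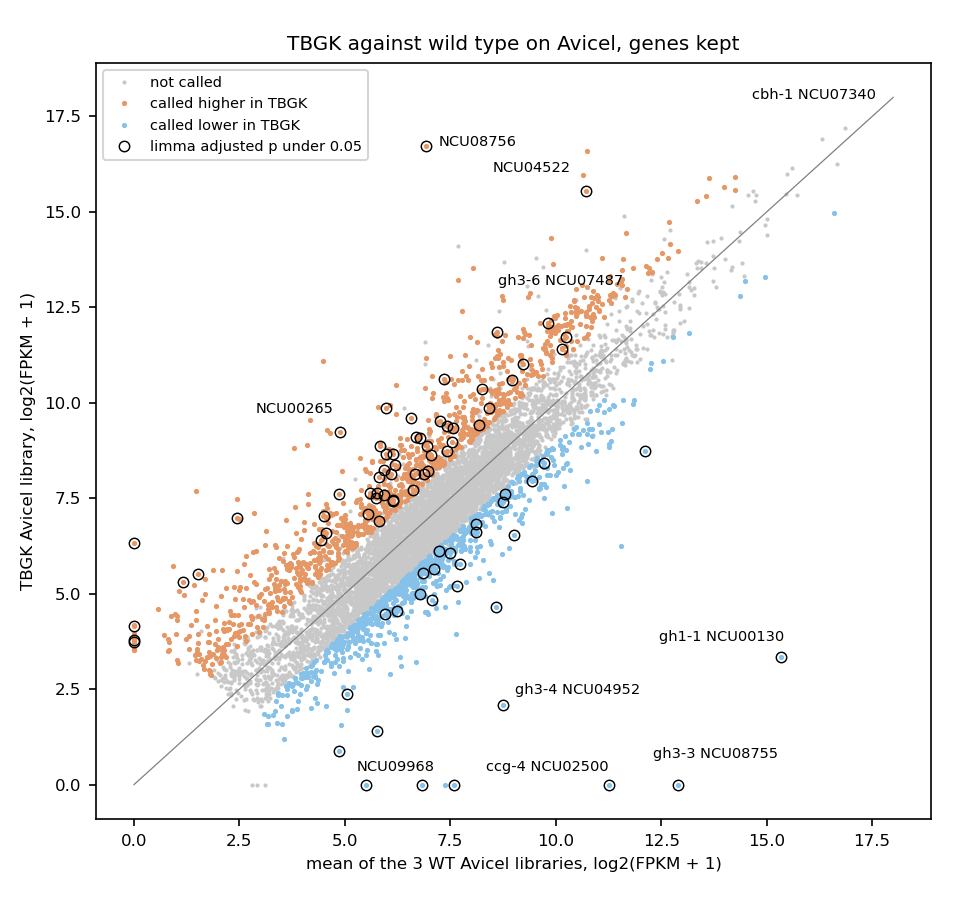
Each dot is 1 of 8185 genes, with the mean of the 3 WT Avicel libraries on the horizontal axis and the TBGK library on the vertical axis, both in log2(FPKM + 1); orange and blue mark the 1064 higher and 789 lower calls, and black rings the 83 genes past the limma threshold. gh3-3, gh1-1 and ccg-4 lie farthest below the diagonal and NCU08756 farthest above it, while cbh-1 lies close to it.

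The test called 10 genes with all libraries and with each WT Avicel library left out in turn, 2 that rose and 8 that fell. They were NCU08756, NCU00265, gh1-1, gh3-3, ccg-4, NCU09968, NCU09969, NCU11930, NCU02061 and NCU05980. With the 4 Avicel libraries alone 4 of them passed, gh1-1, NCU08756, NCU09968 and NCU11930, while the adjusted p of the other 6 lay between 0.0951 and 0.208. Of the 10, 9 were called in the same direction on sucrose, 9 on cellobiose and 8 on both. Some of these calls rest on low values. On cellobiose ccg-4 was at 0 FPKM in TBGK and 1.66 in the single WT library. On sucrose gh3-3 was at 0 FPKM in TBGK and 2.28, 10.1 and 2.82 in WT. NCU00265 had 600.3 FPKM in TBGK on Avicel and 26.9, 32.2 and 27.3 in WT, and rose by 4.34 (SE 0.25, adjusted p = 0.000116; 7.95e-05 to 0.0951 over the alternatives). In WT this gene was low on Avicel and without carbon (34.6, 24.6 and 23.2 FPKM) and higher on sucrose (758, 837 and 762 FPKM), and TBGK on sucrose had 11040.4. On cellobiose the strains had similar values, 649 FPKM in TBGK and 757 in WT. NCU05980 fell, with 24.1 FPKM against 306, 454 and 395 (difference -3.93, SE 0.35, adjusted p = 0.00202; 0.00101 to 0.199 over the alternatives), and was not called on sucrose.

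Some genes separated the strains whatever the medium. NCU09968 (supercont10.6, 309679 to 313666) was listed at 0 in all 3 TBGK libraries and had 178, 200.3 and 197 FPKM in WT on Avicel and 97.5 in WT on cellobiose. NCU09969, 446 bases further on, was also at 0 in every TBGK library and had 43.4, 44.3 and 45.1 FPKM in WT on Avicel. NCU11930 (supercont10.2, 1152277 to 1154521) was at 0 as well, against 110.2, 118 and 109.7. These 3 are the only genes at 0 in all 3 TBGK libraries with at least 5 FPKM in all 10 WT libraries; no gene showed the reverse. In the limma fit, NCU09968 fell by 7.59 (SE 0.34, adjusted p = 6e-05; 1.01e-05 to 0.0329 over the alternatives). NCU11930 fell by 6.83 (SE 0.37, adjusted p = 0.000102; 3.09e-05 to 0.0329) and NCU09969 fell by 5.50 (SE 0.36, adjusted p = 0.000204; 0.000155 to 0.0951). The WT library on cellobiose, which was deposited with the mutant libraries, held all 3 genes. NCU02061 had 1.62 FPKM in TBGK on Avicel against 66.3, 42.2 and 54.7, and its difference was -3.04 on cellobiose and -4.43 on sucrose (adjusted p on Avicel = 0.00495; 0.00323 to 0.208 over the alternatives).

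Mating genes of the A type were likewise at 0 in TBGK. matA-1 (NCU01958), which specifies mating type A, was listed at 0 in all 3 TBGK libraries and had 46.8, 283 and 337 FPKM in WT on Avicel and 12.3 on cellobiose; its adjusted p on Avicel was 0.0533. The pheromone precursor gene ccg-4 (NCU02500), which is expressed in A strains, was at 0 in TBGK against 1211, 3252 and 3709.8 FPKM in WT, and fell by 11.26 (SE 0.94, adjusted p = 0.00122; 0.000659 to 0.176 over the alternatives). For both genes WT replicate 1 was the lowest WT library and still far above TBGK. The pheromone receptor gene pre-1 had 8.21 FPKM in TBGK and 19.03, 218 and 248 in WT, and the receptor gene pre-2 had 22.5 against 12.2, 16.8 and 20.6. Of the 4 mating genes measured well enough, 3 were called lower, against 9.64% of all genes. matA-2 and matA-3 were at 0 in all 4 Avicel libraries.

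**Figure D3:**
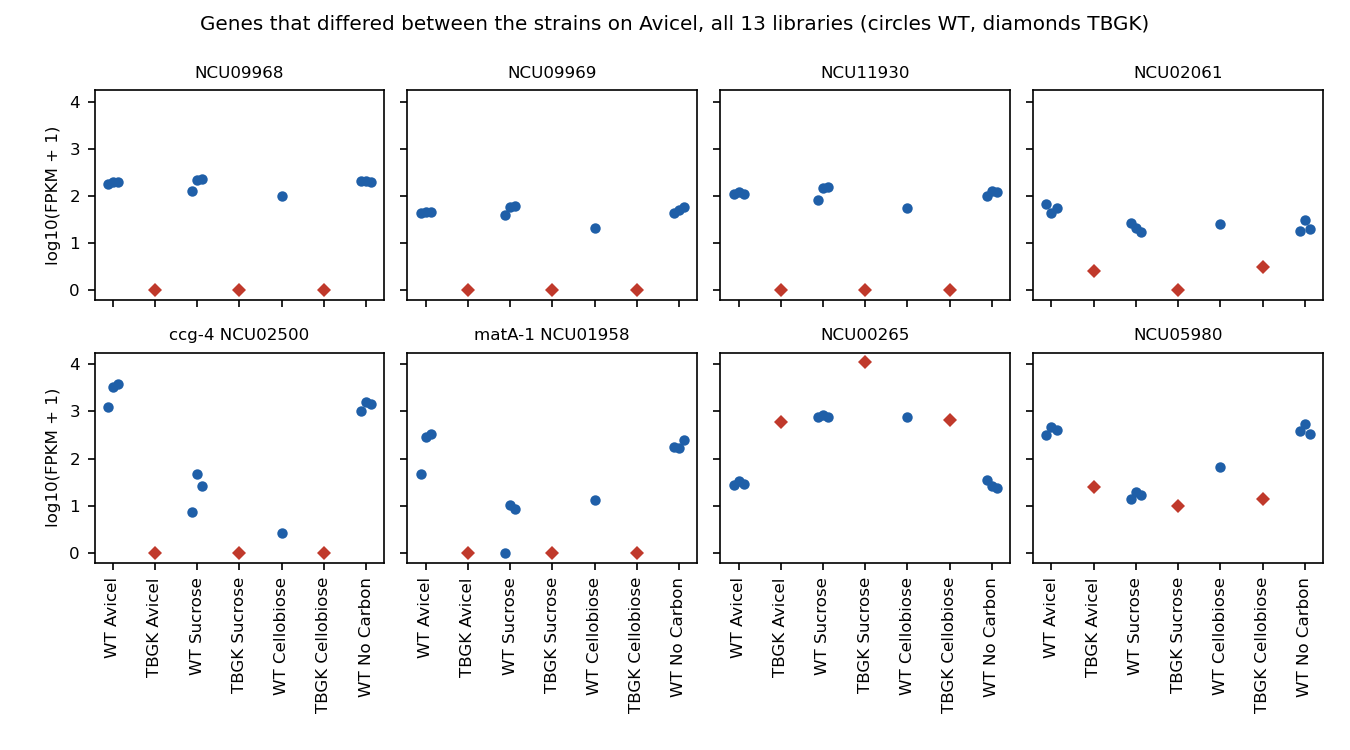
Each panel gives log10(FPKM + 1) of 1 gene in all 13 libraries by strain and carbon source, with circles for WT and diamonds for TBGK. NCU09968, NCU09969, NCU11930, ccg-4 and matA-1 are at 0 in the 3 TBGK libraries, and NCU00265 on Avicel is at 600.3 FPKM in TBGK above WT values of 26.9, 32.2 and 27.3.

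The cellulase genes were strongly expressed on Avicel in both strains. The 8 cellulases summed to 456946 FPKM in TBGK and to 506346, 213614 and 274147 in WT, so TBGK lay inside the WT range. Of the 8, 1 was called higher and none lower, none passed the test, and the median difference was 0.58 against -0.10 over all genes. Over all genes 13% were called higher and 9.64% lower, so 1 of 8 lay near the share called higher. cbh-1, the major cellobiohydrolase, had 151613 FPKM in TBGK and 186620.0, 86756 and 104215 in WT. gh6-2, the other main cellobiohydrolase, had 123749 FPKM against 148857, 51927 and 69064, and the endoglucanase gh5-1 had 65402 against 68101, 32852 and 43671. All 3 TBGK values lay between WT replicate 1 and the lower pair of WT replicates. The gene called higher was gh7-1, an endoglucanase, with 39741 FPKM in TBGK above 17224, 7077 and 9207 in WT (difference 1.94, adjusted p = 0.12). Without WT replicate 1, 4 of the 8 were called higher and the median was 0.96; against replicate 1 alone the median was -0.17. Whether cellulase transcripts are higher in TBGK on Avicel therefore depends on which WT library is the reference.

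The LPMO genes gave a similar picture. Of 13 members measured, 4 were called higher and none lower, none passed the test, and the median difference was 0.61; against WT replicate 1 alone it was -0.01. The shares over all genes were 13% higher and 9.64% lower. The abundant members stayed within the WT range, as gh61-4 with 40084 FPKM against 49138, 17896 and 22868 and gh61-1 with 22893 against 28624, 15906 and 20390.1. The exception among abundant members was gh61-5, at 44786 FPKM above 37828, 20619 and 27142, which did not reach 2-fold. The called members were less abundant. gh61-9 had 1558 FPKM in TBGK and 442, 156 and 148 in WT (difference 2.84, adjusted p = 0.0809). gh61-2 had 1055 FPKM against 307, 189 and 199.8 (difference 2.21, adjusted p = 0.0663), and NCU02344 and NCU07974 were higher by 2.02 and 1.23. By the definition of a call, TBGK lay above every WT library in these 4 genes.

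Beyond the deleted genes, 1 beta-glucosidase gene of the cellobiose list rose. gh3-6 (NCU07487) had 4383 FPKM in TBGK and 984, 740.1 and 1023 in WT, and rose by 2.27 (SE 0.31, adjusted p = 0.0208). Its WT values lay close together and all far below TBGK, but the call was lost without WT replicate 2 (adjusted p = 0.0827), without replicate 3 (0.0708) and with quantile normalization (0.0592); over the alternatives it ran from 0.00249 to 0.212. gh3-1 was called higher at 58.5 FPKM against 34.7, 14.7 and 11.9, and gh3-2 was called lower at 76.4 against 137, 167 and 162. gh3-5 had 130.0 FPKM against 402, 194 and 193, outside the WT range but short of 2-fold. The transporter gene cdt-1 had 48887 FPKM in TBGK and 41156, 12847 and 13786 in WT, above all 3 but near replicate 1 (difference 1.33). cdt-2 had 44589 FPKM against 34039.6, 64599 and 70796, inside the WT range.

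The cellobiose dehydrogenase gene cdh-1, whose product oxidizes cellobiose, had 19311 FPKM against 21319.9, 9524 and 12497 and was not called. cdh-2 was called lower at 5.62 FPKM against 16.1, 16.02 and 19.7, and NCU05853 was called lower at 7102 against 8415, 32427 and 34915, close to replicate 1. Among all genes kept, 13% were called higher and 9.64% lower. Over the whole list of 13, which includes the deleted genes, 3 were called higher and 6 lower, 1 rose and 3 fell in the test, and the median was -0.92.

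Of 21 hemicellulase genes, 2 were called higher and 4 lower, with a median of -0.40; none passed the test. Over all genes 13% were called higher and 9.64% lower, with a median of -0.10. Against WT replicates 1, 2 and 3 alone the hemicellulase median was -0.30, -0.11 and -0.41, and that of all genes -0.01, -0.16 and -0.18, so the order turned for replicate 2. The xylanase gene gh11-1 had 11729 FPKM in TBGK and 9171, 3086 and 3815 in WT, and gh10-3 had 507 against 184, 101 and 107. Lower were gh10-2 at 9969.8 FPKM against 12303, 48359 and 53692, NCU09652 at 634 against 1128, 3835 and 4044, gh3-8 at 50.6 against 52.8, 263 and 291 and gh3-7 at 69.6 against 163, 214 and 280.3. For gh10-2 and gh3-8 the TBGK value was just under WT replicate 1 and several-fold under the other WT libraries. The most abundant member, gh11-2, had 78012 FPKM against 126366, 84185 and 103438. Of 7 pectin genes, none was called higher and 3 were called lower, with a median of -0.91. The polygalacturonase gene gh28-2 had 121 FPKM in TBGK and 699.6, 478 and 516 in WT, below every WT library (difference -2.19, adjusted p = 0.0533), and NCU02654 and NCU09924 differed by -1.28 and -1.22.

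Starch genes split. The glucoamylase gene gla-1 had 2289 FPKM in TBGK and 886, 349 and 173 in WT (difference 2.60), and NCU08746 was called higher by 1.06. gla-2, also named as a glucoamylase gene, had 167 FPKM against 390.2, 466 and 441 and fell by 1.36 (SE 0.21, adjusted p = 0.0326; 0.00844 to 0.212 over the alternatives, with 0.131 without WT replicate 2 and 0.138 without replicate 3). gh31-3 was called lower at 222 FPKM against 447, 1243 and 1209. In all, 2 of 6 were called higher and 2 lower, against 13% and 9.64% of all genes, with a median of -0.49.

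None of the 6 regulators of these genes was called in either direction. Most genes went uncalled, with 13% of all genes called higher and 9.64% lower, so this is no trait of so short a list. clr-1 had 580.4 FPKM in TBGK and 519, 936 and 950.3 in WT, and clr-2 had 970.5 against 1521, 1122 and 1289.6. xlr-1, the xylanase regulator, had 882 FPKM against 984, 1183 and 1303, and vib-1 had 708 against 1184, 1362 and 1476. xlr-1, clr-2 and vib-1 lay below all 3 WT libraries, with differences from the WT mean of -0.38, -0.42 and -0.91, and clr-1 lay inside their range. cre-1 had 652 FPKM against 699.5, 113 and 139.9, near replicate 1 and well above the others. The median of the 6 was -0.40. Of 7 genes for folding in the endoplasmic reticulum none was called, with a median of 0.03. At the same shares over all genes this is likewise no trait of the list. The chaperone gene grp78 had 14820.2 FPKM against 15979, 11826 and 13257.

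Sugar transporter genes differed in both directions, 3 called higher and 3 lower of 8, with none past the test and a median of -0.11. The shares over all genes were 13% higher and 9.64% lower. NCU01633 had 3081 FPKM in TBGK and 609, 831 and 42.9 in WT, and NCU04963 had 14176 against 6352, 1517 and 1081. NCU05627 was higher by 2.25. NCU00988 had 149.8 FPKM against 871, 1365 and 1552 (difference -3.03, adjusted p = 0.0663), and NCU01132 and NCU02188 differed by -1.86 and -1.85. As the calls require, the TBGK value lay outside the range of the 3 WT libraries for these 6 genes. The WT libraries themselves spread widely for NCU01633. Of 5 pentose catabolism genes none was called, with a median of -0.57; the xylose reductase gene xr had 10154 FPKM against 8539.9, 36991 and 37166, between replicate 1 and the others.

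**Figure D4:**
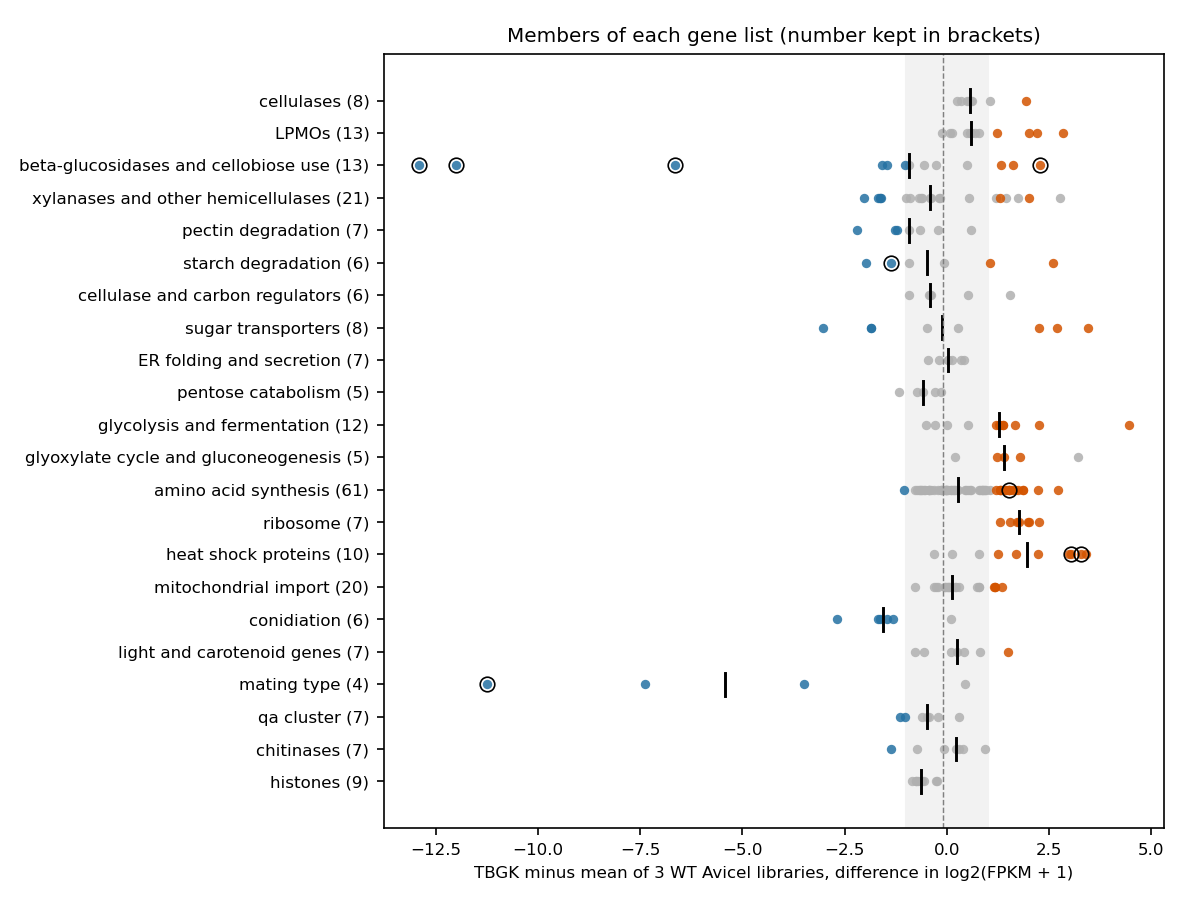
Each dot is a member of a gene list, placed by TBGK minus the mean of the 3 WT Avicel libraries in log2(FPKM + 1), with orange for called higher, blue for called lower and grey for not called; rings mark limma calls, black bars the list medians, the shaded band differences under 1 and the dashed line the median of all genes, -0.10. Ribosome and heat shock genes lie to the right with medians of 1.77 and 1.96, and conidiation genes to the left with a median of -1.55.

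By their median, heat shock genes lay higher in TBGK than in each WT library on Avicel. Of 10, 7 were called higher and none lower, the median difference was 1.96, and 2 rose in the test. hsp78, a chaperone gene of the mitochondrion, had 466 FPKM in TBGK and 71.9, 52.7 and 46.7 in WT, and rose by 3.03 (SE 0.40, adjusted p = 0.0183). hsp30 had 1579 FPKM against 302, 124 and 114 and rose by 3.27 (SE 0.47, adjusted p = 0.0282). Both calls were lost without WT replicate 2 (adjusted p = 0.0768 and 0.0846) and without replicate 3 (0.0708 and 0.0708), with ranges over the alternatives of 0.00725 to 0.212 and 0.000325 to 0.212. hsp70-1 had 6942 FPKM against 1759, 439 and 356, and hsp98 had 2005 against 525, 389 and 387. Both were called higher and so lay above every WT library. hsp90a and hsp88 were not called, with 995 FPKM against 698, 1037 and 1049.7 and 449 against 615, 515 and 538. The 7 of 10 heat shock genes called higher compare with 13% of all genes. Against WT replicate 1 alone the list median was 1.01, and against replicates 2 and 3 it was 2.16 and 2.14. The other media went the other way. On sucrose the median level of the 10 genes was 1517 FPKM in TBGK and 2349, 2227 and 2658 in WT. On cellobiose it was 1053 FPKM in TBGK and 1430 in WT.

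Genes of protein synthesis and sugar breakdown were called higher, but with WT replicate 1 closest to TBGK. All 7 ribosomal protein genes of the crp series were called higher, with a median of 1.77, and none passed the test. The share called higher over all genes was 13%. crp-4 had 4792 FPKM in TBGK and 3213, 567 and 558 in WT, and crp-2 had 4538 against 4184, 1147 and 1304. In all 7, replicate 1 was the highest WT library; the median was 0.48 against replicate 1 and 2.43 and 2.29 against replicates 2 and 3. Of 12 genes of glycolysis and fermentation 8 were called higher and none lower, against 13% and 9.64% of all genes, with a median of 1.29. cfp, which encodes pyruvate decarboxylase, had 20520.3 FPKM against 15862, 532 and 97.1, and the alcohol dehydrogenase gene adh-1 had 60916 against 45486, 8582 and 5255. gpd-1, for glyceraldehyde 3-phosphate dehydrogenase, had 62044 FPKM against 50685, 13037 and 11219.8. These 3 lay within 1.5-fold of replicate 1 and far above the other WT libraries. fba, the aldolase gene, had 5631 FPKM against 6572, 5405 and 4923 and was not called.

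Of 5 genes of the glyoxylate cycle and gluconeogenesis, 3 were called higher, against 13% of all genes, with a median of 1.39. The isocitrate lyase gene acu-3 had 571 FPKM in TBGK and 293, 229.5 and 151 in WT, above all 3. acu-6, for phosphoenolpyruvate carboxykinase, had 7156 FPKM against 9303, 584 and 82.7, inside a WT range that spanned 2 orders of magnitude. Of 61 amino acid genes, including the cpc regulators, 16 were called higher and 1 lower, against 13% and 9.64% of all genes, with a median of 0.29. arg-10, an arginine synthesis gene, had 134 FPKM against 49.2, 44.6 and 43.8 and rose by 1.53 (SE 0.27, adjusted p = 0.0454; 0.0132 to 0.212 over the alternatives, with 0.15 without WT replicate 2 and 0.16 without replicate 3). lys-3 had 95.1 FPKM against 26.9, 8.90 and 9.90, and cpc-1, the general amino acid control factor, had 9433 against 4957, 4438 and 5343, above every WT library but short of 2-fold. trp-5, the 1 gene called lower, had 149 FPKM against 235, 352 and 351. Of 20 mitochondrial import genes 4 were called higher, against 13% of all genes, and none lower, with a median of 0.14; the import receptor gene tom20 had 184 FPKM against 202, 185 and 183, and tim17 of the inner membrane had 367 against 218, 119 and 112.

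Genes of the conidiation list, most of which serve the making of asexual spores, were mostly called lower. The list also holds ccg-1, a glucose-repressible gene, which was among those called lower. Of 6, 5 were called lower and none higher, with a median of -1.55, and none passed the test. Over all genes 9.64% were called lower and 13% higher. con-10 had 65.3 FPKM in TBGK and 158, 699 and 679.5 in WT, and con-6 had 276 against 2082, 654 and 517. eas, which encodes the hydrophobin of the conidial surface, had 9298 FPKM against 34619.9, 20371 and 17326, and ccg-1 had 32124 against 52427, 135310.0 and 138708. As the calls require, TBGK lay below every WT library for these genes. The list median was between -1.39 and -1.24 against each WT library alone. In bulk mycelium, fewer cells of a kind and less RNA per cell cannot be told apart. fl, the regulator of conidial development, had 82.5 FPKM against 58.8, 96.7 and 81.2 and was not called.

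Among the remaining lists, counts of 1 in 7 lay near the shares over all genes, 13% higher and 9.64% lower. Of 7 light and carotenoid genes, 1 was called higher, the photoreceptor gene vvd with 4299 FPKM against 1639.6, 1388 and 1580.1. Of 7 qa genes for quinic acid use, 2 were called lower, qa-Y at 80.6 FPKM against 102, 206 and 209 and qa-1F at 18.7 against 32.4, 47.8 and 48.7. Of 7 chitinase genes, 1 was called lower, gh18-4 at 9.59 FPKM against 23.1, 22.7 and 33.7. None of 9 histone genes was called; hH3 had 13999 FPKM against 13609.8, 18039 and 17931, and the median of -0.64 was -0.06 against WT replicate 1 alone.

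**Figure D5:**
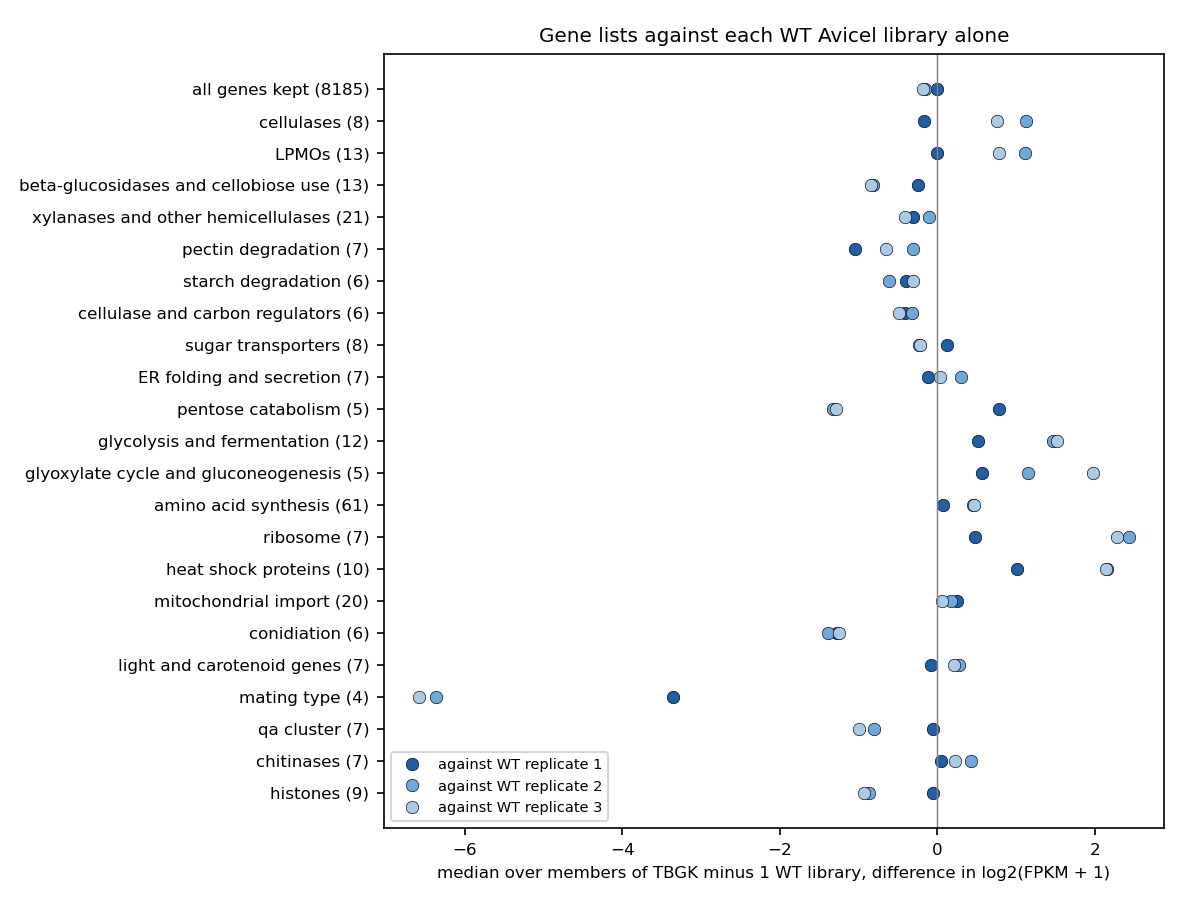
Each row is a gene list, with the median over its members of TBGK minus 1 WT Avicel library in log2(FPKM + 1) for replicates 1, 2 and 3. Cellulases, LPMOs, ribosome, pentose and histone genes lie near different values for replicate 1 than for the other pair, whereas the conidiation medians for the 3 replicates lie between -1.39 and -1.24.

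The list counts were also taken without WT replicate 1, when 16.5% of the 8185 genes were called higher and 15.4% lower. Cellulases, as given above, then had 4 of 8 called higher, and LPMOs had 4 of 13. Heat shock genes had 8 of 10 called higher with a median of 2.15, ribosomal protein genes 7 of 7 with 2.36, and genes of glycolysis and fermentation 8 of 12 with 1.52. Glyoxylate and gluconeogenesis genes had 4 of 5 called higher, and amino acid genes had 22 higher and 4 lower of 61. Hemicellulase genes had 6 higher and 6 lower of 21, the regulators 2 higher and 1 lower of 6, pentose genes 3 lower of 5 and histone genes 2 lower of 9; the counts of regulators and histone genes called lower lay near those shares. Conidiation genes had 5 of 6 and pectin genes 3 of 7 called lower, as with all 3 WT libraries.

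Several of the largest differences came from genes whose WT libraries disagreed. NCU04276, the fourth most abundant transcript of TBGK, had 98942 FPKM and 65365, 1761 and 42.2 in WT (adjusted p = 0.406). NCU07257 had 11817 FPKM against 10873, 46.4 and 34.9, and NCU07352 had 9564 against 9194, 129.8 and 6.10. NCU05338 had 63600.4 FPKM against 20268, 1077 and 191. In these 4, replicate 1 alone shared the high level of TBGK to a large part. NCU07232, NCU06137, NCU01873 and NCU09956 were higher by 6.61, 6.21, 5.38 and 5.05 and did not pass the test. NCU04522 had 48249 FPKM in TBGK and 2676, 1172 and 1497 in WT, and rose by 4.85 (SE 0.55, adjusted p = 0.00999; 0.00126 to 0.212 over the alternatives, with 0.0512 without WT replicate 3). NCU07088 was listed at 0 in all 3 WT Avicel libraries and had 79.1 FPKM in TBGK (adjusted p = 0.0137; 0.000224 to 0.212 over the alternatives, with 0.0642 without replicate 2 and 0.057 without replicate 3). Among lower genes, NCU04169 had 75.02 FPKM against 1306, 4581 and 4560.5 and did not pass the test (adjusted p = 0.168). NCU05382 had 0.846 FPKM against 27.3, 25.6 and 32.1 and fell by 3.98 (SE 0.44, adjusted p = 0.00904; 0.00141 to 0.208 over the alternatives, with 0.0568 without replicate 3).

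The Avicel difference was set beside the same strain contrast on sucrose and on cellobiose, which share no library with it. The genes kept by their Avicel values were used, with no filter on the sucrose or cellobiose level. Genes near 0 on those media could therefore be called, as NCU01132 was on sucrose at 2.21 FPKM against 0, 2.06 and 0. The overlaps below include such genes. On sucrose 707 genes (8.64%) were called higher in TBGK and 172 (2.10%) lower. The 167 genes higher on both media were 15.7% of the Avicel list and 23.6% of the sucrose list, and the 50 genes lower on both were 6.34% and 29.1%. In the opposite direction, 59 genes were lower on Avicel and higher on sucrose, and 32 were higher on Avicel and lower on sucrose. The 59 were drawn from the 707 genes higher on sucrose and the 50 lower on both from the 172 lower there. The 2 counts can therefore not be ranked against each other. On cellobiose, with 1 library per strain, 1684 genes (20.6%) were at least 2-fold higher and 1332 (16.3%) lower. The 256 genes higher on both were 24.1% of the Avicel list and 15.2% of the cellobiose list, and the 114 lower on both were 14.4% and 8.56%. Conversely, 283 genes were higher on Avicel and lower on cellobiose, out of 1064 and 1332 on those lists. Another 266 were lower on Avicel and higher on cellobiose, out of 789 and 1684.

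On all 3 media 65 genes were called higher and 19 lower. Among the higher ones besides NCU08756 were NCU05948, NCU04501, NCU02854, NCU08773 and NCU07581, with smallest differences over the media of 2.26 to 2.62. NCU04501 had 1233 FPKM in TBGK on Avicel against 422, 98.7 and 114, and differed by 2.50 on sucrose and 2.56 on cellobiose. NCU08773 had 138 FPKM against 34.2, 23.98 and 23.04, and differed by 2.30 and 2.62. For genes of cellulose use the media gave different values. The difference of the cellulase gene cbh-1 was 0.35 on Avicel and 0.42 on sucrose, inside the WT range on both, and 9.05 on cellobiose. That of the beta-glucosidase gene gh3-6 was 2.27, 0.18 and 5.30. The amino acid gene lys-3 was higher by 2.73 on Avicel and differed by -0.64 on sucrose and -3.03 on cellobiose. Whether these differences between media exceed the spread between cultures was not tested, since TBGK has 1 library on each.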

How the data were processed

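The authors obtained the deposited FPKM values with TopHat, for which no version is stated, and Cufflinks (0.9.3); both names come from the submitters' processing notes. A genome build is not given in the sources used here. Coordinates follow the contig names of the deposited tables. The deposited tables of the WT triplicates also hold coverage, a signal per transcript, whose product with length gave the depth per the file headers. Transcript rows (9907) were summed to 9733 genes present in every library. Genes with a mean of the TBGK value and the WT mean of at least 5 FPKM were kept (8185). Differences are in log2(FPKM + 1), which understates low genes. limma 3.58.1 in R 4.3.3 (intensity trend, 13 libraries in 7 groups, 6 residual degrees of freedom, Benjamini-Hochberg) was checked on simulated data; tables were made with pandas 2.3.3. Whole reads could not be recovered, so a value of 0 carries no limit and no counting interval is given.

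The labels describe the WT libraries as biological triplicates and the mutant libraries as single. Members and the 22 gene lists, compiled from general knowledge of the annotation, were chosen with earlier results of these data known. The genes named were the deleted genes, the 12 largest calls in each direction, the called members of each list, the 8 most abundant transcripts and genes called alike on 3 media. The neighbours, genes at 0 throughout TBGK, genes called under every left-out library and the other list members were named after their values were seen. The comparison of lists with each WT library alone was also chosen after seeing the data. A reference table of assembly NC12 matched 8914 of 9733 identifiers and gave 1093 a symbol. No sequence is shown.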

Additional observations from a re-analysis of the deposited data

Results flagged for a closer look

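In 4 named genes TBGK lay outside the WT libraries in 1 direction on Avicel and in the opposite direction on sucrose; the difference between the media was not tested. NCU05382 was lower on Avicel by 3.98 and higher on sucrose by 2.83, with 6.12 FPKM in TBGK on sucrose and 0 in all 3 WT libraries. NCU01132 was lower on Avicel by 1.86 and higher on sucrose by 1.15, with 2.21 FPKM against 0, 2.06 and 0, so it was barely expressed there. The ribosomal protein genes crp-3 and crp-2 were higher on Avicel by 1.56 and 1.30 and differed by -1.10 and -1.11 on sucrose. On sucrose crp-3 had 6972 FPKM in TBGK and 10946, 17250.3 and 17846 in WT, and crp-2 had 13284 against 16016, 38820.5 and 37814, with WT replicate 1 nearest to TBGK in both.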

How the results depend on the processing

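No paired analysis was possible because the single TBGK library carries no replicate number. None of the 135 named genes called by range and fold changed direction under the 12 alternatives. Of these, the restriction to genes with 1 transcript row left 126 to compare. A called gene lies outside every WT Avicel library, so only median-of-ratios scaling and quantile normalization could have reversed its direction. Under the other alternatives the direction was fixed in advance. Leaving out 1 WT Avicel library gave 990 to 1349 higher and 630 to 1276 lower calls by range and fold, 2 to 818 higher and 8 to 1076 lower limma calls, and 78 to 190 genes lower on Avicel and cellobiose. Without replicate 1, 1000 of the 1064 higher and 765 of the 789 lower calls remained. A pseudocount of 10 gave 523 lower calls, overlaps of 68 higher and 27 lower with sucrose and 50 lower with cellobiose, and 150 higher and 74 lower limma calls. Requiring 2-fold beyond the nearest WT library gave 465 higher and 295 lower calls, with overlaps of 42 and 27 on sucrose and 116 and 43 on cellobiose. Median-of-ratios scaling moved the median of all genes from -0.10 to 0.02 and the share of higher calls from 57.4% to 67.1%, and gave 66 genes lower on Avicel and cellobiose. Without a filter 98 genes were higher in limma, and the 4 Avicel libraries alone gave 1 and 3. The list median of sugar transporters changed sign under median-of-ratios scaling (0.01), that of endoplasmic reticulum genes under quantile normalization (-0.32) and without WT replicate 2 (-0.04), and that of chitinases without replicate 3 (-0.09). The cause of these shifts was not tested. The depth of TBGK is unknown.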
